A study of Ulmus minor with 54 samples.

Results

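The transcripts described here are leaf transcripts of the field elm, Ulmus minor, whose group median stood at least 2.02-fold higher 1 h after simulated egg laying and stayed within 1.74-fold of the leaves without larvae after larval feeding, both after adding 0.5 CPM (counts-per-million) to each median. They were chosen from measured levels by a fixed rule, which kept 11 of the 237477 assembled sequences in the table. All 11 are named below. None of them carries a gene name in the files used here, so no function can be given, and each is called by its identifier (10 contigs and scaffold23706).

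Field elm is the host of the elm leaf beetle. An egg-laying female gnaws the leaf surface and glues her eggs to it with oviduct secretion. The larvae hatch some days later and feed on the same leaves. Plants can perceive insect eggs and alter their leaf chemistry before any larva has hatched, and leaves that have carried eggs can answer later feeding more strongly, which is known as priming. Both egg laying by this beetle and feeding injure the leaf, and wounding by itself raises many defence transcripts within an hour, so a transcript that answers to eggs and not to feeding is sought by asking for a rise after the first and a flat level after the second.

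RNA sequencing covered 54 leaf libraries from wild-type trees of 1 clonal culture, in 18 groups of 3. In the priming set, leaves were left untreated (C) or received simulated eggs (P), for which a strip of epidermis was removed and oviduct secretion of gravid beetles was put on the wound, and were harvested 1, 6 or 24 h later. In the triggering set, harvested 1, 6 or 24 h into feeding, leaves had neither treatment (CC), simulated eggs 7 days earlier (PC), 5 newly hatched larvae per leaf (CT), or simulated eggs and, 7 days later, larvae (PT). Replicates are numbered 1 to 3, except that those of CC at 6 h are numbered 1, 3 and 4. Levels are listed in order of replicate number. No wound was made on the untreated leaves, so effects of wounding and of secretion cannot be told apart in P, PC or PT. The labels do not say whether the libraries of a group came from separate trees, so the p-values below measure the spread between libraries, which may be technical. The libraries are of whole leaf tissue, in which a change in the number of cells of a type and a change in the RNA per cell cannot be told apart.

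Library totals ran from 28916592 to 93878963 reads in 53 libraries. CT 24 h replicate 1 stood apart, with 14667334 reads on 62026 sequences against 176736 to 221423 sequences in the others, and the rule leaves it out, so CT at 24 h has 2 libraries here. Among the 53 libraries, the 3 labelled P replicate 1 were the least like the rest, with median Spearman correlations of 0.827 (1 h), 0.828 (6 h) and 0.831 (24 h) with the other libraries.

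Levels are counts-per-million (CPM) scaled with TMM, a method that corrects library size for differences in composition. The rule first took the 29546 transcripts with a median of 2 to 300 CPM over the 18 untreated libraries (C and CC). Ratios of group medians were taken on the log2 scale after adding 0.5 CPM. Of the transcripts in that range, 375 (1.27%) had a P over C ratio at 1 h of at least 1, which is a doubling. Of the 375, 11 (2.93%) also kept all 6 feeding ratios, CT over CC and PT over PC at 1, 6 and 24 h, between -0.8 and 0.8. The rule would have kept up to 200, so its limit on number was not reached.

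The feeding bound removed nearly every transcript that was raised at 1 h. In the whole range, 20421 of 29546 transcripts (69.1%) lay within the bound. Among those with a 1 h egg ratio between -0.25 and 0.25, 15540 of 20071 (77.4%) lay within it. The share was 292 of 1132 (25.8%) at egg ratios of 0.5 to 1 and 11 of 234 (4.70%) at ratios of 1 to 1.5. None of the 86 transcripts at ratios of 1.5 to 2, and none of the 55 above, stayed within the bound. Of the 375 raised transcripts, 360 exceeded the upper bound in at least 1 feeding ratio, and 89 were past the bound in either direction in all 6. The share above the upper bound was 52.3% for CT over CC at 1 h, against 2.41% in the whole range, and 73.9% at 24 h, against 8.77%. The 11 transcripts are thus the low end of the egg response. Their ratios ran from 1.01 to 1.42, and 164 of the 375 had a ratio above the highest of theirs, up to 4.83.

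**Figure D1:**
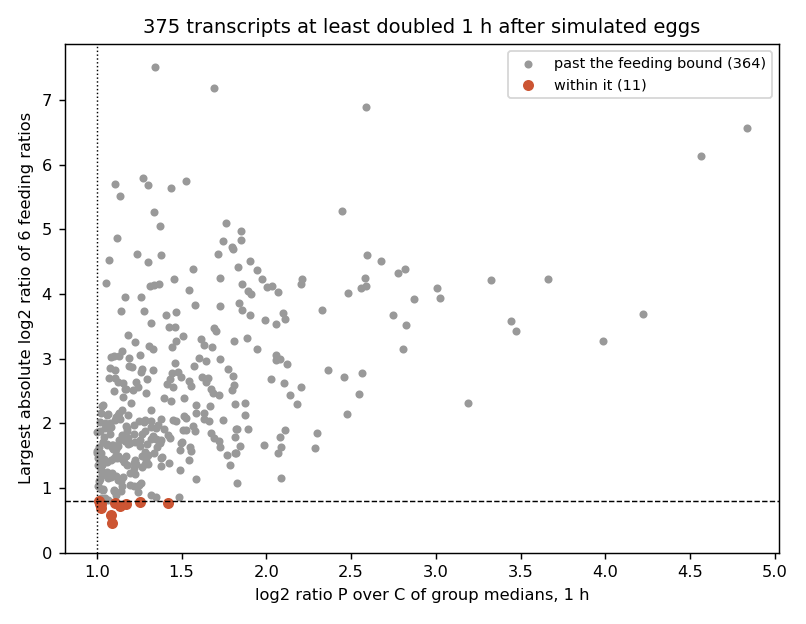
The log2 ratio of P over C group medians at 1 h is plotted against the largest absolute log2 feeding ratio of each of the 375 transcripts with an egg ratio of at least 1, with the 11 within the feeding bound in red and the bound of 0.8 as a dashed line. The red points lie in the lower left corner, at egg ratios from 1.01 to 1.42, and no transcript with a higher egg ratio lies under the line.

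The values just inside and just outside the thresholds were close together. C278403, with the lowest egg ratio kept (1.01), also had the feeding ratio nearest the bound (0.80). C302181 and C408695 missed the egg threshold with ratios of 0.99 and 0.98. C223499 had an egg ratio of 1.26 but a largest feeding ratio of 0.804, and C595703 reached 0.810. By kind of sequence, 10 of the 11 were contigs, against 59.4% of all transcripts in range and 51.6% of the 364 raised transcripts past the bound.

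The values that chose the 11 transcripts at 1 h are given as a description. In 7 of the 11, every P library lay above every C library at 1 h (6.35% of all transcripts in range did so), and in the other 4 the groups overlapped. Since the rule used this contrast, nothing is read from that count.

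C227203 had the highest egg ratio, 1.42. Its level was 3.07, 3.92 and 2.46 CPM in C replicates 1 to 3 and 9.82, 9.07 and 4.12 CPM in P. The groups did not overlap, and P replicate 3 lay close above the highest C library.

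C250841 (ratio 1.26) was at 2.31, 2.06 and 2.08 CPM in C and at 20.5, 5.66 and 2.93 CPM in P. C554057 (ratio 1.11) was at 6.67, 6.88 and 7.16 CPM in C and at 46.3, 15.4 and 10.8 CPM in P. Both had tight untreated levels and a P group spread over several fold, with replicate 1 far above the other 2 and replicate 3 lowest.

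C198099 (ratio 1.17) was at 1.97, 0.876 and 0.427 CPM in C and at 2.25, 7.79 and 2.60 CPM in P. Here P replicate 2 was the high library, and P replicate 1 was barely above C replicate 1. C382211 (ratio 1.03) was at 3.70, 3.99 and 3.36 CPM in C and at 5.02, 10.9 and 8.05 CPM in P.

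The other 2 transcripts without overlap had evenly raised P libraries. Scaffold23706 (ratio 1.02) was at 32.8, 41.5 and 55.2 CPM in C and at 78.8, 84.5 and 91.3 CPM in P. C278403 (ratio 1.01) was at 32.7, 48.9 and 37.6 CPM in C and at 76.2, 102 and 65.3 CPM in P.

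In the remaining 4 transcripts, 1 library of a group reached into the other. C582531 (ratio 1.14) was at 2.03, 2.06 and 4.32 CPM in C and at 3.30, 5.23 and 5.14 CPM in P. C602363 (ratio 1.09) was at 9.37, 9.38 and 15.5 CPM in C and at 20.7, 15.3 and 20.5 CPM in P. In both, C replicate 3 lay above the lowest P library.

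C407353 (ratio 1.08) was at 1.99, 1.98 and 2.61 CPM in C and at 4.77, 5.98 and 2.30 CPM in P, where P replicate 3 lay within the range of C. C327899 (ratio 1.02) was at 38.4, 96.2 and 54.9 CPM in C and at 176, 112 and 78.1 CPM in P, where C replicate 2 lay above P replicate 3.

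**Figure D2:**
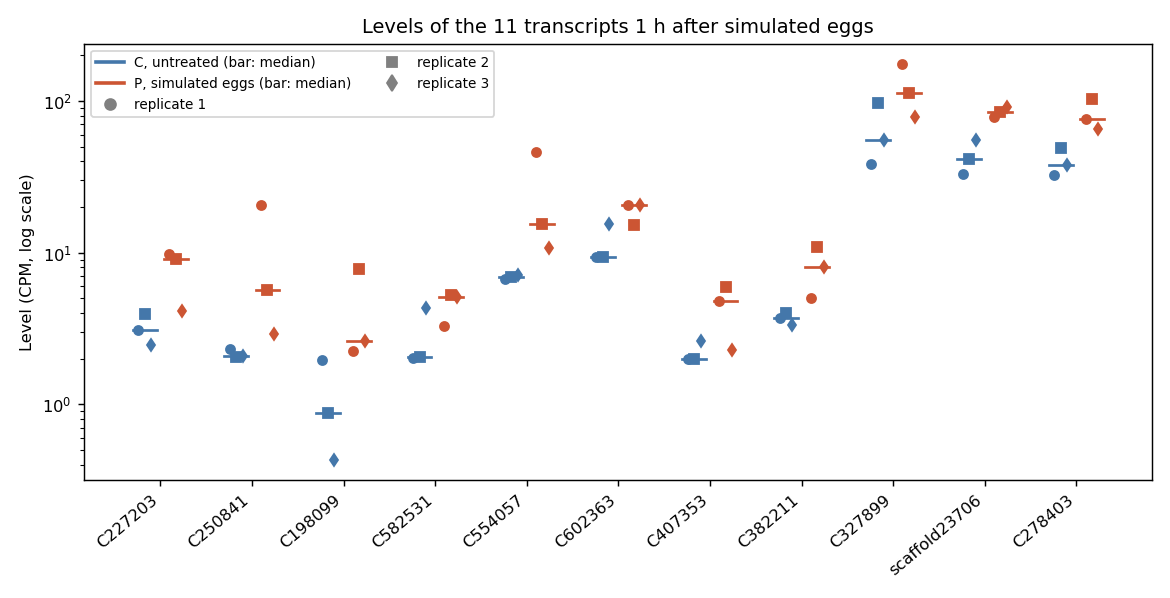
Levels of the 11 transcripts 1 h after simulated eggs, in CPM on a log axis, with 1 point per library (the shape gives the replicate) and a bar at each group median. P lies above C in every median, replicate 3 is the lowest P library for 6 of the 11, and the groups of C582531, C602363, C407353 and C327899 overlap.

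The P libraries were not raised alike. Taken 1 library at a time against the C median, all 11 transcripts were above 0 in each P library. A ratio of at least 1 was reached by 8 of the 11 in replicate 1, by 10 in replicate 2 and by 5 in replicate 3, with medians of 1.08, 1.26 and 0.79. Membership rests on these few libraries. Without P 1 h replicate 1, the library least like the others, the rule kept 9 transcripts, of which 5 are among the 11. It kept 90 without P replicate 2 (7 of the 11 among them) and 97 without replicate 3 (8 of the 11). Left out in turn, C replicates 1, 2 and 3 at 1 h kept 5, 6 and 7 of the 11.

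The feeding ratios were bounded by the rule and are also given as a description. They do not bear out a reading of these transcripts as flat under feeding. Of the 66 feeding ratios, 43 were above 0, 23 were at least 0.5 and 3 were at or below -0.5. At 1 h, CT over CC had a median of 0.52 with 10 of 11 above 0, and PT over PC had a median of 0.47 with 11 of 11 above 0. The medians over all transcripts in range were -0.07 and -0.11. At 6 h the members' medians were -0.01 and 0.42, and at 24 h they were -0.10 and -0.05. The 11 are therefore called by the rule here, as transcripts raised by simulated eggs at 1 h and held within the feeding bound.

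C278403 had the most even feeding ratios of the 11, and all were above 0. In CC it was at 36.9, 45.4 and 53.7 CPM at 1 h and in CT at 44.6, 65.2 and 90.2 CPM. At 6 h it was at 48.2, 42.7 and 43.5 CPM in CC and at 86.6, 64.4 and 59.7 CPM in CT. All 6 of its feeding ratios lay between 0.47 and 0.80, so its median was the higher one under feeding at each hour, with and without earlier eggs.

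C602363 lay farthest inside the bound, with a largest absolute ratio of 0.45, and was the only one of the 11 kept when the bound was set to 0.5. At 1 h it was at 20.0, 22.7 and 9.85 CPM in CC and at 22.6, 51.2 and 19.9 CPM in CT. The groups overlapped, and CT replicate 2 was the highest of all 53 libraries for this transcript.

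C198099 and C407353 went the other way at 24 h, with CT over CC ratios of -0.75 and -0.59. C198099 was at 12.5, 7.83 and 8.03 CPM in CC and at 3.23 and 5.94 CPM in the 2 CT libraries, and C407353 was at 5.93, 8.92 and 5.72 CPM in CC and at 3.21 and 4.36 CPM in CT. In both, the CT libraries lay below the CC libraries. Without overlap in CT against CC at 24 h, 4 of the 11 were lower (34.3% of transcripts in range) and 4 were higher (21.1%). The rule used this contrast, so nothing is read from those counts. The PT over PC ratios at 24 h were -0.05 for C198099 and -0.35 for C407353.

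**Figure D3:**
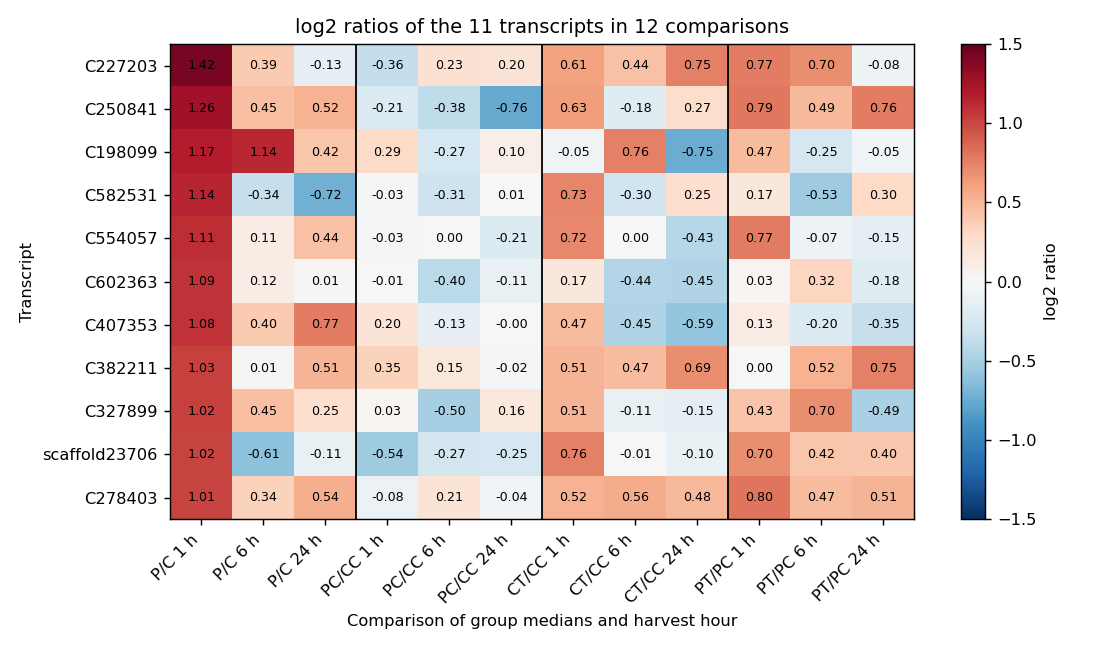
Log2 ratios of group medians (0.5 CPM added) for the 11 transcripts in 12 comparisons, with red for a higher and blue for a lower first group. The P over C column at 1 h and the 6 feeding columns at the right were used by the rule, and the feeding columns at 1 h are red for nearly every transcript.

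Whether the early rise lasted was asked of the later priming harvests, which the rule did not use beyond the untreated median. Against untreated leaves, none of the 11 differed at 6 or 24 h by edgeR's quasi-likelihood test, with p-values adjusted by Benjamini-Hochberg over all transcripts tested. This test called 37 of 126737 transcripts at 6 h (0.0292%) and 29 at 24 h (0.0229%). Before adjustment, 0 of the 11 at 6 h and 1 at 24 h had a p of at most 0.05. Of all 126737 transcripts tested, 7720 at 6 h and 6903 at 24 h did so. None of the 11 was called by DESeq2's Wald test either, which called 498 and 234 transcripts in all.

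The estimates lay on both sides of 0, from -0.51 to 1.24 at 6 h and from -0.89 to 1.12 at 24 h on the log2 scale. The median log2 fold change of P against C was 0.20 at 6 h, with 8 of 11 above 0, and 0.43 at 24 h, again with 8 of 11 above 0. Over all transcripts in range the medians were 0.02 and -0.02. The 95% intervals were wide, reaching up to 3.12 for C198099 at 6 h and 2.38 for the same transcript at 24 h, and several of them included a doubling.

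C407353 had the smallest p at 24 h. It was at 2.14, 2.34 and 1.16 CPM in C and at 4.10, 1.83 and 4.00 CPM in P, and the groups overlapped through P replicate 2. Its log2 fold change was 0.81 ± 0.35 (SE, n = 3 and 3), with an unadjusted p of 0.0349 and an edgeR adjusted p of 0.869. At 6 h its P libraries, at 2.16, 2.24 and 2.71 CPM, all lay above the C libraries at 1.70, 1.42 and 1.58 CPM. It was the only one of the 11 without overlap in that direction at 6 h, where 9.02% of transcripts in range had none. The log2 fold change there was 0.59 ± 0.36 (SE), with an edgeR adjusted p of 0.911.

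C198099 was the only one of the 11 without overlap at 24 h (2.51% of transcripts in range). It was at 2.96, 10.5 and 9.47 CPM in C and at 12.5, 12.8 and 14.1 CPM in P. The log2 fold change of 0.79 ± 0.75 (SE) had an edgeR adjusted p of 1. At 6 h the same transcript was at 1.40, 0.0368 and 0.263 CPM in C, the second of these resting on 2 reads, and at 1.18, 2.00 and 0.406 CPM in P. Those groups overlapped, although the ratio of their medians was the largest of the 11 at that hour, 1.14.

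Scaffold23706 had the smallest p at 6 h, and its estimate was below 0. It was at 62.0, 116 and 131 CPM in C and at 80.5, 75.9 and 59.4 CPM in P. The log2 fold change was -0.51 ± 0.28 (SE), with an unadjusted p of 0.0901 and an edgeR adjusted p of 0.891. At 24 h its groups overlapped, with C at 18.4, 19.5 and 26 CPM and P at 30.5, 14.2 and 18.0 CPM.

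In C250841 and C554057, P replicate 1 stood out at 1 h, and so did the P library with the same replicate number at 24 h, which is a different library. C250841 was at 3.09, 4.22 and 2.41 CPM in C at 24 h and at 13.6, 2.99 and 4.64 CPM in P. C554057 was at 6.65, 7.36 and 5.73 CPM in C and at 18.1, 5.56 and 9.21 CPM in P. Replicate 1 was the highest P library in both, and in both the lowest P library lay inside or below the range of C. The log2 fold changes were 1.12 ± 0.58 and 0.73 ± 0.44 (SE), with edgeR adjusted p of 0.952 and 1. At 6 h P replicate 1 did not stand out for C250841 (3.23, 2.52 and 3.29 CPM) or C554057 (16.6, 18.3 and 15.0 CPM). The part of the low likeness of the P replicate 1 libraries to the others in these values was not tested.

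The difference between the 24 h and the 6 h egg response was called for none of the 11 and for 0 of 126737 transcripts (0%) by edgeR's quasi-likelihood test, and before adjustment 0 of the 11 and 5214 transcripts in all had a p of at most 0.05. Under DESeq2 there were 75 calls, none of them among the 11. The ratio of P medians between hours, which partly repeats the high 1 h values that chose the transcripts, had a median of -0.72 for 6 over 1 h and -0.66 for 24 over 1 h. The 364 raised transcripts past the feeding bound had P over C medians of 0.75 at 6 h and 0.64 at 24 h on the same scale, beside 0.34 and 0.42 for the 11. The difference between the 2 sets was not tested.

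**Figure D4:**
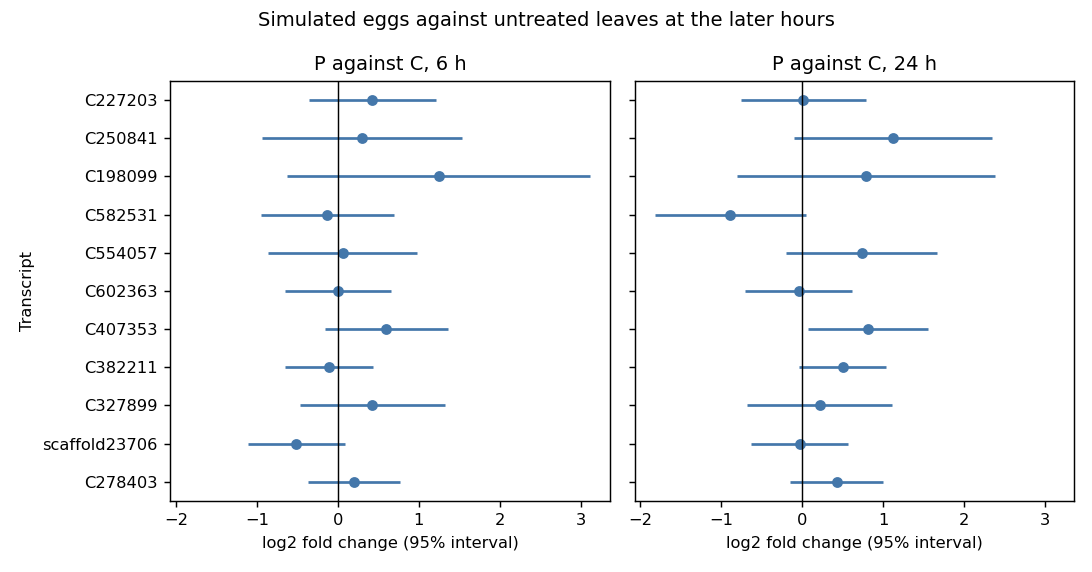
Log2 fold change of P against C at 6 h (left) and 24 h (right) for the 11 transcripts, from edgeR, with 95% intervals as bars. All intervals but that of C407353 at 24 h include 0, and 8 of 11 estimates lie above 0 at each hour.

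At 7 days after simulated eggs, leaves without larvae (PC against CC) held no called difference. The rule did not use this contrast, but PC and CC were the lower groups of its feeding ratios. The edgeR quasi-likelihood test called 0 of the 11 and 0 of 156137 transcripts (0%) at each of the 3 harvest hours. Before adjustment, p was at most 0.05 for 5293, 6258 and 6443 transcripts at 1, 6 and 24 h, of which 0, 2 and 1 were among the 11. DESeq2 called 94, 112 and 38 transcripts and none of the 11. The members' median log2 fold changes were 0.13, 0.09 and -0.10, with 10, 7 and 3 of the 11 above 0. The ratios of group medians gave another tally, with 4 of the 11 above 0 at each hour. Their medians were -0.03, -0.27 and -0.02 at 1, 6 and 24 h.

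C198099 had the largest estimate at 1 h. It was at 1.98, 0.615 and 2.95 CPM in CC and at 2.53, 1.70 and 9.16 CPM in PC, and the groups overlapped. The log2 fold change of 1.26 ± 0.69 (SE) had a 95% interval from -0.15 to 2.67, with an unadjusted p of 0.0774 and an edgeR adjusted p of 1. It ranged from 0.16 to 1.78 under the alternatives.

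The smallest unadjusted p values belonged to C250841, whose level was lower after eggs. At 6 h it was at 5.62, 8.70 and 5.36 CPM in the CC libraries and at 3.14, 4.19 and 4.19 CPM in PC. At 24 h it was at 6.98, 6.31 and 5.04 CPM in CC and at 4.08, 3.08 and 3.53 CPM in PC. The groups did not overlap at either hour. PC differed from CC by a log2 fold change of -0.79 ± 0.33 (SE) at both, with unadjusted p of 0.0234 and 0.0247 and edgeR adjusted p of 1. At 1 h it was at 5.77, 4.57 and 3.98 CPM in CC and at 11.5, 3.88 and 3.79 CPM in PC. There PC replicate 1 lay above and the other 2 PC libraries lay below every CC library, so the fitted log2 fold change was 0.40 while the ratio of medians was -0.21.

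PC replicate 1 at 1 h was also the high library of C227203 (7.75, 2.57 and 2.63 CPM), C554057 (23, 11.1 and 9.67 CPM) and scaffold23706 (86.6, 25.7 and 8.86 CPM). Set against each transcript's mean over the untreated libraries, the 11 had a median log2 difference of 0.49 in that library, of 0.01 in replicate 2 and of -0.05 in replicate 3.

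C327899 was the other transcript with an unadjusted p under 0.05 at 6 h. It was at 242, 202 and 182 CPM in CC and at 145, 130 and 142 CPM in PC, with no overlap, and the log2 fold change of -0.60 ± 0.29 (SE) had an edgeR adjusted p of 1. In the count of groups without overlap, C250841 and C327899 made 2 of 11 lower in PC at 6 h (3.78% of transcripts in range), and C250841 and C554057 made 2 of 11 at 24 h (3.33%). C227203 was the 1 transcript higher in PC without overlap at both hours (6.49% and 4.86% of transcripts in range). Its log2 fold changes were 0.52 ± 0.36 at 6 h and 0.38 ± 0.36 (SE) at 24 h, with edgeR adjusted p of 1.

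Whether earlier eggs altered the level under feeding was asked by PT against CT. The rule bounded both groups against their own controls, so these differences were partly limited by it. The edgeR quasi-likelihood test called 0 of the 11 and 0 of 156137 transcripts (0%) at 1, 6 and 24 h, and before adjustment 0 of the 11 had a p of at most 0.05. There were 7128, 8636 and 5402 transcripts in all at that p, and DESeq2 called 25, 4 and 4, none of them among the 11. The members' medians were -0.09, 0.11 and 0.03.

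C198099 had the smallest p at 1 h. It was at 1.90, 1.12 and 5.24 CPM in CT and at 3.70, 1.26 and 15.8 CPM in PT, with replicate 3 highest in both groups. The log2 fold change of 1.33 ± 0.68 (SE) had an unadjusted p of 0.0592 and an edgeR adjusted p of 1, and without PT replicate 3 it was -0.13. Without CT replicate 3, the high CT library, the estimate was 2.20. At each replicate number the PT library lay above the CT library, and the log2 ratio of group medians was 0.81. Whether the numbers pair these libraries is not known. Deviations of same-numbered libraries from their group means had correlations of -0.10, 0.04 and 0.19 in this comparison. Replicate 3 was also the highest for this transcript in CC and PC at 1 h. The smallest p at 6 h was again that of C198099, with an estimate below 0. This transcript was at 13.1, 4.62 and 12.2 CPM in CT and at 4.77, 4.74 and 7.73 CPM in PT. The groups overlapped. The log2 fold change was -0.76 ± 0.67 (SE), with an unadjusted p of 0.263 and an edgeR adjusted p of 0.937. The log2 ratio of group medians at 6 h was -1.27.

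C227203 had the smallest p at 24 h, with 5.73 and 6.24 CPM in the 2 CT libraries and 3.73, 3.69 and 3.61 CPM in PT. The groups did not overlap. PT differed from CT by a log2 fold change of -0.74 ± 0.39 (SE), with an unadjusted p of 0.0668 and an edgeR adjusted p of 1. Without overlap, 1 of the 11 was lower in PT at 1 h (scaffold23706, 5.08% of transcripts in range) and at 24 h (C227203, 8.22%), and 1 was higher at 24 h (C198099, 14.6%).

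Untreated leaves showed how much the 11 transcripts moved with harvest hour, a contrast that the rule did not use. It did use these libraries, with C at 1 h below the egg ratio and CC at each hour below a feeding ratio. A low C level at 1 h thus favoured selection, and the contrasts between hours are not independent of the rule. In CC, edgeR's quasi-likelihood test called 1 of the 11 between 1 and 6 h, where 4.23% of 156137 transcripts were called, and 2 of the 11 between 6 and 24 h, where 2.33% were. By direction, the 1 call at 6 h was higher (1.50% of all) and the 2 calls at 24 h were lower (0.621% of all).

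C327899 peaked at 6 h in CC. Its level was 50.8, 98.1 and 124 CPM at 1 h, 242, 202 and 182 CPM at 6 h and 66.1, 99.8 and 69.5 CPM at 24 h, and the 6 h libraries lay above all others. It rose by a log2 fold change of 1.21 ± 0.29 (SE) from 1 to 6 h (edgeR adjusted p = 0.0146) and changed by -1.42 ± 0.30 from 6 to 24 h (edgeR adjusted p = 0.00762). The first call was lost without CC 1 h replicate 1 (adjusted p = 0.109), CC 1 h replicate 2 (0.0515) or CC 6 h replicate 1 (0.0585), and the second without CC 24 h replicate 1 (0.0684) or replicate 3 (0.0590). The estimates stayed between 0.93 and 1.49 and between -1.64 and -1.31 under all alternatives.

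In the untreated leaves of the priming set the same transcript ran the other way. C was at 38.4, 96.2 and 54.9 CPM at 1 h, at 31.7, 29.8 and 18.4 CPM at 6 h and at 59.3, 37.3 and 63.7 CPM at 24 h, so the 6 h libraries were the lowest. At 6 h, P was at 43.1, 40.9 and 24.6 CPM, overlapping C. In the triggering set CT was at 221, 172 and 187 CPM and PT at 124, 232 and 319 CPM, both overlapping CC, while PC lay below CC as given above.

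C582531 was lowest at 24 h in both sets. In CC it was at 2.03, 1.41 and 2.37 CPM at 1 h, at 2.46, 4.93 and 6.25 CPM at 6 h and at 0.431, 0.764 and 0.390 CPM at 24 h. It fell by 3.11 ± 0.62 (SE) on the log2 scale from 6 to 24 h (edgeR adjusted p = 0.00579, and 0.0572 without CC 24 h replicate 1). In C it was at 2.03, 2.06 and 4.32 CPM at 1 h, at 10.2, 17.9 and 14.7 CPM at 6 h and at 1.06, 0.563 and 1.53 CPM at 24 h. The 6 h libraries were the highest there too, without overlap.

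Scaffold23706 had the same shape as C582531 in C, from 32.8, 41.5 and 55.2 CPM at 1 h to 62.0, 116 and 131 CPM at 6 h and 18.4, 19.5 and 26 CPM at 24 h. In CC it was at 42.6, 37.5 and 31.2 CPM at 1 h, at 11.2, 24.7 and 33.9 CPM at 6 h and at 11.6, 8.33 and 9.78 CPM at 24 h. The log2 fold change from 6 to 24 h in CC was -1.25 ± 0.67 (SE), with an edgeR adjusted p of 0.399. The day of the experiment and the set to which a library belonged cannot be told apart in such contrasts between C and CC.

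C198099 was lower at 6 h than at 24 h in C and lower at 1 h than at the later hours in CC. It was at 8.19, 7.02 and 3.08 CPM in CC at 6 h and at 12.5, 7.83 and 8.03 CPM at 24 h, after 1.98, 0.615 and 2.95 CPM at 1 h. The log2 fold change from 1 to 6 h was 1.73 ± 0.70 (SE), with an edgeR adjusted p of 0.178, and the call was made (0.0456) with the replicate number as a block. C554057, with a log2 fold change of 0.86 ± 0.28 (SE) from 1 to 6 h and an edgeR adjusted p of 0.0782, was called by DESeq2 (0.0373) and when only the compared groups were fitted (0.0481).

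C278403 and C382211 varied least over the 18 untreated libraries, from 32.7 to 54 CPM and from 1.96 to 4.07 CPM. By the ratio of highest to lowest level, C198099 varied most in the same libraries, from 0.0368 CPM (2 reads) to 12.5 CPM. C582531 ranged from 0.390 to 17.9 CPM, scaffold23706 from 8.33 to 131 CPM and C327899 from 18.4 to 242 CPM. Both ends of the range of C327899 were 6 h libraries, the lowest in C and the highest in CC.

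**Figure D5:**
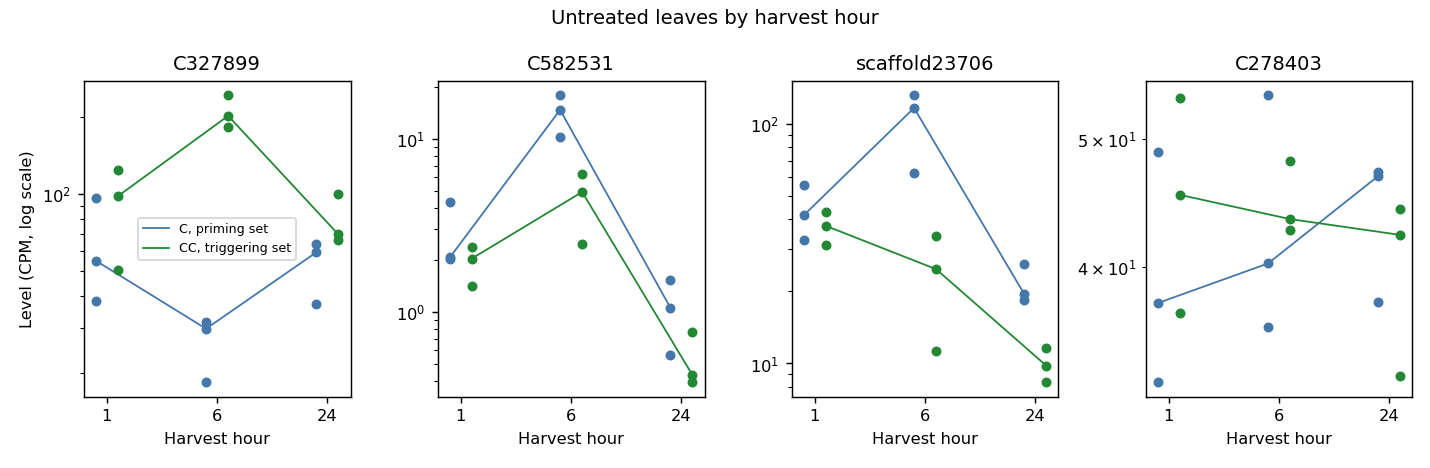
Levels in untreated leaves by harvest hour for C327899, C582531, scaffold23706 and C278403, in CPM on log axes that differ between panels, with 1 point per library, lines through the group medians and the hours evenly spaced. C327899 is highest at 6 h in CC and lowest at 6 h in C, C582531 is lowest at 24 h in both, and C278403 stays between 32.7 and 54 CPM.

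Over the 53 libraries the 11 transcripts did not vary as 1 group. Spearman's rho over the 55 pairs ran from -0.70 to 0.76 with a median of 0.20, and 10 pairs were at 0.5 or above and 12 below 0. C582531, C602363 and scaffold23706 varied together, with rho of 0.76, 0.75 and 0.65 for their pairs. C198099 ran against them, with rho of -0.55, -0.62 and -0.70. C227203 and C278403 had a rho of 0.63. These values are a description, since all pairs share the same libraries, harvest hours and treatments and the 1 h egg libraries were used to choose the transcripts.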

How the data were processed

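The authors deposited raw read counts per assembled sequence, which are whole numbers. Per the submitters' processing notes, CASAVA and Trimmomatic 0.33 were used. Assembly, aligner, counter and use of strand are not given in the sources used, so reads shared by overlapping, antisense or similar sequences cannot be told apart. No genome, gene names or sequences were used. Libraries were polyA-selected, per the labels' protocols.

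Columns were matched to samples by the number in the labels. Each of the 54 within-group pairs of libraries differed beyond sampling noise (smallest chi-square per degree of freedom 9.48). Levels were computed over 53 libraries and all rows. Tests used edgeR 4.0.16 in R 4.3.3 (filterByExpr with minimum count 10 and minimum total count 15, TMM, glmQLFit and glmQLFTest) on each set, 1 mean per group, with calls at a Benjamini-Hochberg p of 0.05 or less. All 11 transcripts passed the filter. SEs are the log2 fold change over the square root of F. DESeq2 1.42.0 was an alternative. The edgeR test was also run on simulated counts for P against C and PC against CC at 6 h. The simulated spread was the same for all transcripts, unlike measured counts, and no result here rests on that run.

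Same-numbered libraries deviated together at every number (correlation above 0.1) only for PC against CC at 1 h (0.286, 0.101 and 0.362), where the fit with a replicate block called none of the 11. The plan named transcripts by a rule on rank, and all 11 were named because the rule kept no more. The transcripts and comparisons were chosen with earlier results of these data known.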

Additional observations from a re-analysis of the deposited data

Results flagged for a closer look

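C327899 differed in direction between the untreated leaves of both sets. Its 6 over 24 h ratio of group medians was 1.53 on the log2 scale in CC and -0.98 in C, a difference of 2.51. Every CC library was higher at 6 h (242, 202 and 182 CPM) than at 24 h (66.1, 99.8 and 69.5 CPM), and every C library was lower at 6 h (31.7, 29.8 and 18.4 CPM) than at 24 h (59.3, 37.3 and 63.7 CPM). The difference was not tested.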

How the results depend on the processing

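No alternative called any of the 11 in the 9 egg comparisons (P against C at 6 h, at 24 h and their difference, PC against CC and PT against CT at each hour). The alternatives were DESeq2's size factors or Wald test, no filter, only the compared groups, a replicate block, CT 24 h replicate 1 kept in and each compared library left out. With the replicate block, 2 of the 11 were called higher for CC at 6 against 1 h, C327899 and C198099. The same fit called 1502 of 156137 transcripts higher. DESeq2's Wald test and the fit of only the compared groups also called 2 higher for this comparison, but these were C327899 and C554057. In all, they called 3725 of 156137 and 2567 of 107710 transcripts higher. Leaving out a library gave 0 to 1 of the 11 for CC at 6 against 1 h and 0 to 2 for CC at 24 against 6 h. PT against CT at 1 h for C198099 ran from -0.13, a reversal without PT 1 h replicate 3, to 2.20 without CT 1 h replicate 3. The cause was not tested.

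Counts over all transcripts moved more. For P against C they ran from 0 to 498 at 6 h and from 0 to 738 at 24 h, the latter without P 24 h replicate 2. The block gave 100 and 599, and no call was left at 6 h when C replicate 2, C replicate 3, P replicate 1 or P replicate 2 was dropped, or at 24 h when any C library was. Without P 24 h replicate 1 or 3, the 24 h count was 102 or 10. For CC they ran from 2708 to 8827 (6 against 1 h) and from 1139 to 6022 (24 against 6 h). With CT 24 h replicate 1 kept in, PT against CT at 24 h gave 52 calls. In the other comparisons checked, same-numbered libraries did not have a correlation above 0.1 at every number. This cannot show that they were unpaired, and P libraries were not compared in this way across harvest hours.

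Membership depended on the settings. Of the 11, the rule kept 6 with a pseudocount of 0.1, 2 with a pseudocount of 2, 7 with DESeq2's size factors, 1 at a feeding bound of 0.5 and 5 with CT 24 h replicate 1 kept in. Leaving out a C or P library at 1 h, tried after seeing the data, kept 5 to 8. With 3 libraries a group, the 95% intervals at 6 and 24 h spanned a doubling for several transcripts.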
